A study of Homo sapiens with 6 samples.

Results

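VCP is an ATPase that pulls ubiquitylated proteins out of membranes and complexes. The 9 genes described here are VCP itself, 4 of its adaptors (NPLOC4, NSFL1C, FAF1 and FAF2) and 4 components of the endoplasmic reticulum (ER) membrane that pass proteins to it (DERL1, DERL2, SYVN1 and SEL1L). They were picked by name in a table of 27918 genes and loci, after a comparison of the same libraries was known, so their differences between the groups are given as a description and not as tests. All 9 were found. For NPLOC4, FAF1, FAF2, DERL1, DERL2 and SEL1L, 6 in number, the row held the gene alone. The other 3 shared a row with a neighboring gene (VCP with FANCG, NSFL1C with SIRPB2, and SYVN1 with FAU), so those values are of both genes together.

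Poly(A) RNA was sequenced from HCT-116, an established human colorectal carcinoma line. Cells had been transfected with a control GapmeR (GapNC, 3 libraries) or with a GapmeR against the long noncoding RNA CASC9 (GapC9, 3 libraries). A GapmeR is an antisense oligonucleotide that directs RNase H to its target RNA. Both groups thus carried an oligonucleotide, no untransfected cells were analysed here, and one GapmeR sequence stands for the loss of CASC9. The sample records do not say whether the 3 libraries of a group came from separate cultures, so the errors measure only the spread between these libraries. Levels are in FPKM (fragments per kilobase of transcript, scaled to the mapped fragments of the library), which divides by length and lets genes be compared with each other.

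In ER-associated degradation, misfolded proteins are recognized in the ER, ubiquitylated at its membrane and drawn into the cytosol for the proteasome. SYVN1 (HRD1) is the membrane ubiquitin ligase of the best known route, SEL1L holds its complex together, and the derlins DERL1 and DERL2 help move the substrate across the membrane. VCP supplies the pull. It works with exchangeable adaptors, of which the UFD1-NPLOC4 pair recognizes ubiquitin chains, FAF2 (UBXD8) sits in the ER and lipid droplet membranes, FAF1 binds ubiquitylated proteins, and NSFL1C (p47) serves Golgi membrane fusion.

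CASC9 itself did not check the labels. It was listed at 0, 0.0109 and 0 FPKM in GapNC replicates 1, 2 and 3, and at 0.0528, 0.107 and 0 FPKM in GapC9. The groups overlapped (exact two-sided permutation test, p = 0.4, where 3 against 3 allows no less than 0.1), so GapC9 below means the libraries labelled GapC9. The authors did report lower CASC9 by RT-qPCR in HCT-116 cells given their CASC9 GapmeR, a measurement apart from these libraries. Taking the most frequent spacing of low FPKM values as a single fragment, the depth was 22.7 to 24.4 M (mega) fragments a library, and at the lowest value of any of the 9 genes in a library this comes to 67 fragments per kilobase. GapNC replicate 1 stood apart in base composition, and GC content ran in part with the groups. Over 10117 genes, its deviation from the mean of the 6 libraries rose with GC content (Spearman rho = 0.63 across genes, which are not independent). The remaining controls gave 0.0103 (replicate 2) and −0.107 (replicate 3), while the GapC9 libraries gave 0.0259, −0.344 and −0.389, so that both strongly negative trends were of GapC9. Among 12 colon epithelial markers, 7 averaged 1 FPKM or more, led by KRT8, KRT18 and KRT19, and the summed level was 1032 to 1433 FPKM in GapNC and 1023 to 1286 in GapC9. VIL1, CDX1, LGALS4 and GPA33 were under 0.1 FPKM and CEACAM5 had no row. No leukocyte or endothelial marker reached a mean of 1 FPKM, and fibroblast markers summed to 4.21 to 5.72 FPKM in GapNC and 4.42 to 5.32 in GapC9.

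VCP (ENSG00000165280) is encoded on the minus strand at chr9:35056064-35073249 (GRCh38, as for all positions here), and its row also holds FANCG, a gene of DNA crosslink repair. The row read 39.8, 33.4 and 31.4 FPKM in GapNC and 36.6, 34.7 and 33.6 FPKM in GapC9. It had the highest level of the 9 in both groups, and the groups overlapped. The means were 34.8 ± 4.399 (SD, n = 3) and 35.0 ± 1.53 FPKM, a log2 fold change of 0.01 (SE 0.12) for GapC9 minus GapNC on the log2(FPKM + 0.1) scale used throughout. The highest GapNC value was that of replicate 1, and the row's transcripts have a GC content of 54.4%. Without that replicate the log2 fold change was 0.11, and after a correction for GC content it was 0.18, the upper end of a range from −0.06 over 13 settings. In both of these settings every GapC9 value of the row was above every GapNC value. The groups did not overlap, in either direction, for 45.2% of all genes without that replicate and for 38.4% after the GC correction.

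Stretches around the stress-response and CCAAT letters in the promoters are shown. XBP1 and ATF6, the transcription factors of the unfolded protein response, are known to act through stress-response elements in ER degradation genes. CCAAT is only part of one such element, the ER stress element described below, and alone does not mark a site of these factors. RefSeq promoters of GRCh38.p14 (250 bases before to 50 bases after the start) were matched for 8 of the 9 genes, with 9 windows in all. Each stretch below has 30 bases on the gene's own strand, 5′ to 3′, with the matched letters in capitals (TGACGTGG for VCP, and ATTGG, which is CCAAT on the other strand, for SEL1L and DERL2).
VCP, chr9:35072796-35072825, minus strand: ttgcggccaatTGACGTGGcgttactaggc
SEL1L, chr14:81533912-81533941, minus strand: agaccatggtgATTGGaccagaagcccgcg
SEL1L, chr14:81533880-81533909, minus strand: ggcgggcggggATTGGctgcgcgctgggtc
DERL2, chr17:5486318-5486347, minus strand: cgcaactcgtgATTGGcggatgtgcgttcc
DERL2, chr17:5486265-5486294, minus strand: gcttggcgttgATTGGgcagtcgcgggaaa

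The UPRE letters TGACGTGG, the element named for the unfolded protein response, were searched on both strands and found in 1 of the 9 windows, that of VCP, starting at position −189 from the RefSeq start. They stood in 0.729% of 35116 promoters of the same length. In VCP they directly follow a CCAAT at −194, and that window held 5 matches to CCAAT. SEL1L held 5 as well, including those at −77 and −45 printed above. DERL2 held matches at −158 and −105. CCAAT is short and stood in 34.6% of all promoters. The ER stress element (ERSE), which is CCAAT and CCACG with 9 bases between, and ERSE-II, which is ATTGG and CCACG with 1 base between, were in 0 of the 9 windows, and in 0.077% and 0.054% of all promoters. Both NPLOC4 windows start 71032 and 81863 bases inside the annotated gene, at internal starts, and are not printed. The RefSeq starts of VCP and DERL2 also lie inside the annotated gene, by 624 and 633 bases. Their printed stretches therefore fall within the annotated genes and not before them. For SEL1L the start lies 8 bases inside, and its printed stretches are outside the annotated gene.

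The adaptors differed in direction among themselves. NPLOC4 was low in GapC9, FAF1 slightly so, and FAF2 and the NSFL1C row were higher there. NPLOC4 (ENSG00000182446; minus strand, chr17:81556887-81648465) gave 13.98, 25.4 and 23.8 FPKM in GapNC and 5.85, 5.19 and 7.09 FPKM in GapC9. Every GapC9 library was below every GapNC library, with a gap of 6.89 FPKM between the nearest ones. The means were 21.1 ± 6.18 and 6.04 ± 0.968 FPKM (SD, n = 3), so that GapC9 stood at 28.7% of GapNC, and the log2 fold change was −1.75 (SE 0.26). Here the lowest control was GapNC replicate 1. Leaving it out gave −2.02, and over all 13 settings the value ran from −2.02 to −1.58. In bulk RNA, fewer cells with a transcript and less of it per cell cannot be told apart, here and below. All 21 annotated transcripts were listed in the row. TSPAN10 overlaps NPLOC4 by 11295 bases on the opposite strand, and it was at 0.128 to 0.265 FPKM in all 6 libraries.

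FAF2 (ENSG00000113194; plus strand, chr5:176447628-176510074) read 7.83, 25.9 and 26.1 FPKM in GapNC and 30.6, 32.3 and 31.3 FPKM in GapC9. The means of 19.9 ± 10.5 and 31.4 ± 0.832 FPKM (SD, n = 3) gave a log2 fold change of 0.84 (SE 0.47). GapNC replicate 1 was 3.31-fold below the next lowest library. Without it the GapNC mean was 26.0 FPKM, the ratio of means went from 1.57 to 1.21 and the log2 fold change to 0.27 (SE 0.07), with the remaining GapNC libraries still below all GapC9 libraries. A single library at least 3-fold under the 5 others was found in 419 of the 10229 genes averaging 1 FPKM or more (4.1%), and GapNC replicate 1 was that library in 97 (0.948%).

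FAF1 (ENSG00000185104; minus strand, chr1:50437028-50960263) had the tightest controls of the 9. It gave 5.24, 5.09 and 5.14 FPKM in GapNC and 4.68, 4.14 and 3.84 FPKM in GapC9. The groups did not overlap, at means of 5.16 ± 0.0808 and 4.22 ± 0.427 FPKM (SD, n = 3) and a log2 fold change of −0.29 (SE 0.11). FAF1 and FAF2, both with UBA, UAS and UBX domains, thus stood on opposite sides.

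NSFL1C (ENSG00000088833; minus strand, chr20:1442162-1473842) overlaps SIRPB2 by 3102 bases on the same strand and shares its row. The row gave 5.19, 5.65 and 4.38 FPKM in GapNC and 6.89, 6.75 and 6.49 FPKM in GapC9. All GapC9 values were above all GapNC values, by at least 0.845 FPKM. The means were 5.07 ± 0.643 and 6.71 ± 0.202 FPKM (SD, n = 3), with a log2 fold change of 0.41 (SE 0.13).

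**Figure D1:**
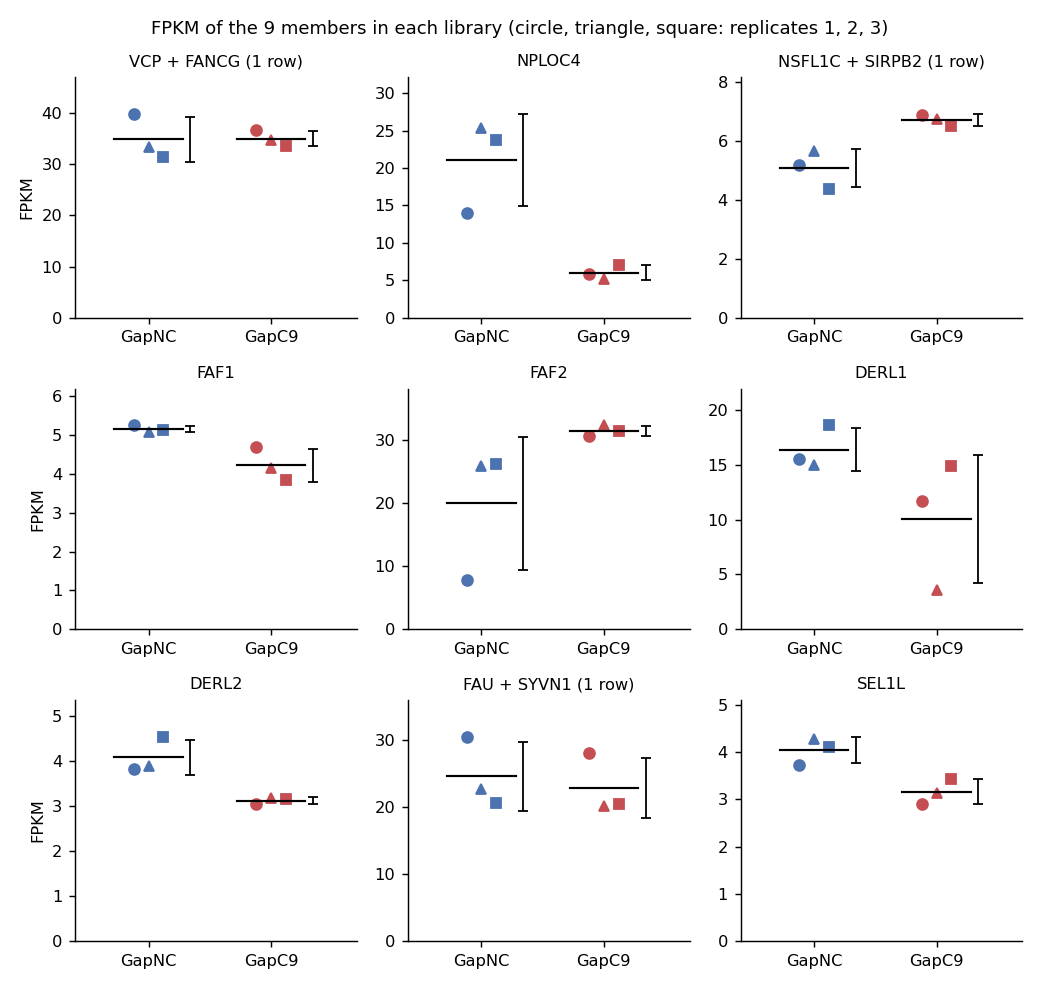
FPKM (y axes, starting at 0) of the 9 genes in the 3 GapNC and the 3 GapC9 libraries, 1 panel per row of the table. Symbols are libraries (circle, triangle and square for replicates 1, 2 and 3), horizontal lines are group means and the bars beside them are ± 1 SD. NPLOC4 is at 13.98 to 25.4 FPKM in GapNC and 5.19 to 7.09 in GapC9, while 1 circle in FAF2 (7.83) and 1 triangle in DERL1 (3.61) lie far from the rest of their group.

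At the ER membrane, DERL1, DERL2 and SEL1L were lower in every GapC9 library than in any GapNC library, and the SYVN1 row was not. SYVN1 (ENSG00000162298; minus strand, chr11:65121780-65134533) overlaps FAU, a ribosomal protein gene, by 694 bases on the same strand, and the shared row listed 15 transcripts of SYVN1 and 9 of FAU. It gave 30.4, 22.7 and 20.6 FPKM in GapNC and 27.95, 20.1 and 20.4 FPKM in GapC9. Replicate 1 was the highest library of each group, and the groups overlapped. The means were 24.6 ± 5.16 and 22.8 ± 4.44 FPKM (SD, n = 3), and the log2 fold change of −0.10 (SE 0.20) ranged from −0.26 to 0.11 over the 13 settings, changing sign when GapNC replicate 1 was left out (0.06) and with the GC correction (0.11). The levels of SYVN1 and FAU cannot be told apart in it. MRPL49, on the opposite strand, overlaps SYVN1 by 5189 bases and was at 39.3 to 48.6 FPKM.

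SEL1L (ENSG00000071537; minus strand, chr14:81471549-81533861), the partner of SYVN1, was at 3.74, 4.28 and 4.12 FPKM in GapNC. In GapC9 it was at 2.91, 3.14 and 3.44 FPKM. The nearest libraries were 0.2997 FPKM apart, the means were 4.05 ± 0.278 and 3.16 ± 0.266 FPKM (SD, n = 3), and the log2 fold change was −0.35 (SE 0.12). After median scaling the groups overlapped.

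DERL2 (ENSG00000072849; minus strand, chr17:5471251-5486811) gave 3.81, 3.88 and 4.52 FPKM in GapNC and 3.03, 3.17 and 3.14 FPKM in GapC9. Its GapC9 libraries were nearly equal and all below the controls, at 4.07 ± 0.395 against 3.11 ± 0.0728 FPKM (SD, n = 3) and a log2 fold change of −0.37 (SE 0.11). The first 527 bases of DERL2 overlap MIS12, a kinetochore gene on the opposite strand. MIS12 stood at 1.31, 1.08 and 1.25 FPKM in GapNC and 3.87, 5.83 and 6.54 FPKM in GapC9, the other direction. Whether strand was used in counting is not given in the sources used here, so the part of shared reads in either value was not tested.

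DERL1 (ENSG00000136986; minus strand, chr8:123013164-123042423) read 15.6, 15.0 and 18.6 FPKM in GapNC and 11.7, 3.61 and 14.9 FPKM in GapC9. The groups were separated by only 0.163 FPKM. The means were 16.4 ± 1.92 and 10.1 ± 5.80 FPKM (SD, n = 3), with a log2 fold change of −0.92 (SE 0.52). GapC9 replicate 2 was 3.25-fold below the next lowest library, and without it the GapC9 mean was 13.3 FPKM, the ratio of means went from 0.614 to 0.811 and the log2 fold change to −0.30 (SE 0.17). With that library removed, DERL1, DERL2 and SEL1L had log2 fold changes of −0.30, −0.38 and −0.34, and the FAU and SYVN1 row had −0.02. The library was chosen for its low DERL1 value. After median scaling, and after the GC correction, the DERL1 groups overlapped.

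In GapNC the levels ran from the VCP row through FAU with SYVN1, NPLOC4, FAF2, DERL1, FAF1, the NSFL1C row and DERL2 to SEL1L. Neighbors in this order overlapped, except that every VCP value was above every FAU and SYVN1 value and every DERL1 value above every FAF1 value. In GapC9 NPLOC4 went from place 3 to place 6 and FAF2 from place 4 to place 2. Relative spread (SD over mean) was largest for FAF2 in GapNC (52.6%) and for DERL1 in GapC9 (57.6%), and was 1.57% to 29.4% in the other GapNC groups.

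By an adjusted p under 0.05 in limma, fitted to all 16028 genes tested, 1 of the 9 was called, NPLOC4, where 6.99% of all genes were (303 or 1.89% higher and 817 or 5.1% lower). At a ratio of means of at least 2 or at most 0.5 with an unadjusted p under 0.05, NPLOC4 was again the 1 member called, beside 6.42% of all genes (336 or 2.1% higher and 693 or 4.32% lower). An unadjusted p under 0.05 alone was met by 5 of the 9, the NSFL1C row higher and NPLOC4, FAF1, DERL2 and SEL1L lower, and by 25.9% of all genes (9.09% higher and 16.8% lower). GapNC and GapC9 values were fully apart for 7 of the 9, against 34.2% of all genes, with 2 higher (FAF2 and the NSFL1C row, against 12.6%) and 5 lower (NPLOC4, FAF1, DERL1, DERL2 and SEL1L, against 21.6%). With the fit limited to genes averaging 1 FPKM or more, as all 9 did, 11.7% were called at the adjusted p and 39.3% were fully apart. Because the members were picked with this comparison known, nothing is read from these counts. Of all genes called at the adjusted p, 72.9% were lower in GapC9, and this share was 58.5% after median scaling and 53.0% after the GC correction; at the fold threshold it was 67.3%, 52.5% and 47.8%. With the GC correction 4 of the 9 were called at the adjusted p (NPLOC4, DERL2, SEL1L and the NSFL1C row), beside 15.1% of all genes under that setting. It left 7 of the 9 without overlap (38.4% of all genes), with the VCP row gained and DERL1 lost. With median scaling 5 of the 9 did not overlap (34.4% of all genes), DERL1 and SEL1L being lost. NPLOC4 kept its adjusted call in 1 of the 6 fits with 1 library left out, the one without GapNC replicate 1.

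**Figure D2:**
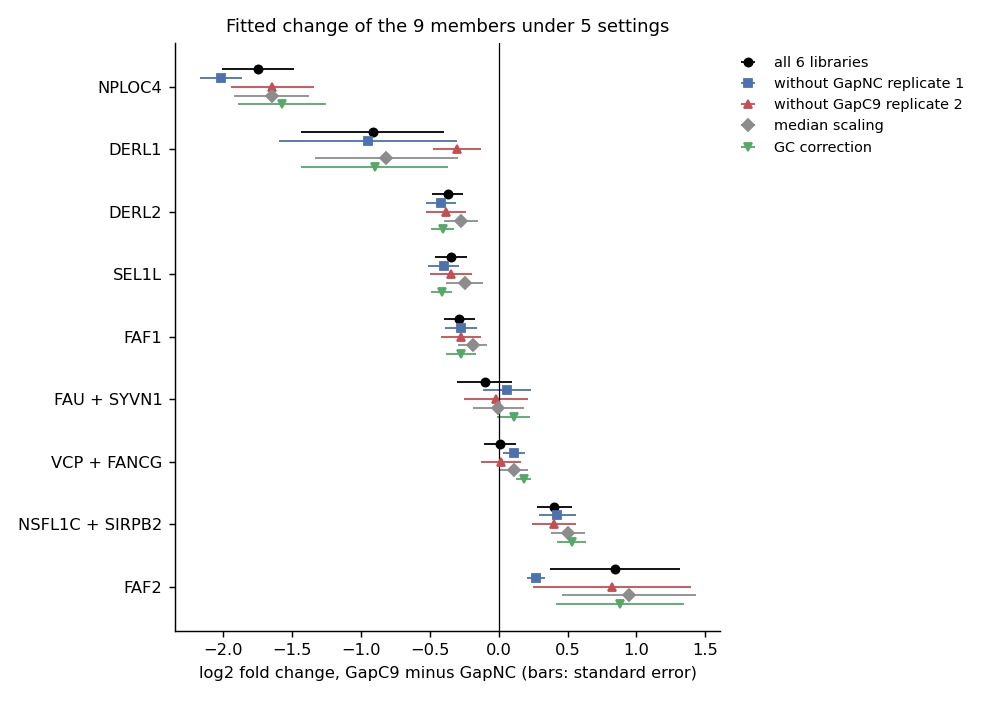
Log2 fold change of the 9 genes (x axis, GapC9 minus GapNC, on log2(FPKM + 0.1)) with its standard error, under 5 settings given by color and symbol. NPLOC4 stays between −2.02 and −1.58, FAF2 goes to 0.27 without GapNC replicate 1, and DERL1 goes to −0.30 without GapC9 replicate 2.

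The longest stretch of each gene's spliced transcripts that could pair with the 16-base CASC9 GapmeR was 9 bases in DERL1 and 8 in NPLOC4, DERL2 and SYVN1, and 7 in the other 5 genes. Of 57133 annotated genes, 5.65% held a run of at least 9 bases, 21.8% of at least 8 and 47.3% of at least 7. These shares are of all annotated genes and were not matched to the 9 for the number or length of transcripts. Introns were not searched.

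UFD1, the obligate partner of NPLOC4 in the ubiquitin-binding pair, fell in GapC9. It gave 9.18, 8.24 and 8.35 FPKM in GapNC and 5.03, 5.03 and 4.99 FPKM in GapC9. The GapC9 libraries were almost identical and all below the controls. The means were 8.59 ± 0.516 and 5.01 ± 0.0224 FPKM (SD, n = 3), with a log2 fold change of −0.76 (SE 0.10) and a limma adjusted p of 0.0192. The adjusted p was 0.0264 after median scaling and 0.00524 after the GC correction, and between 0.0287 and 0.0971 with 1 library left out, passing 0.05 in 1 of 6 such fits, that without GapNC replicate 1. GapC9 stood at a ratio of 0.584 to GapNC for UFD1 and 0.287 for NPLOC4.

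Other adaptors and cofactors of VCP moved in both directions. Of 24 listed, 23 were tested (UBXN10 had no row), and 1 rose and 2 fell at the adjusted p. That is 13.0%, beside 6.99% of all genes and 11.7% of those averaging 1 FPKM or more, as all 23 did. Besides UFD1, ASPSCR1 (a UBX protein known for retaining the insulin-responsive glucose transporter inside cells) fell from 2.42 ± 0.581 to 1.09 ± 0.110 FPKM (SD, n = 3), with a log2 fold change of −1.06 and a limma adjusted p of 0.036. ATXN3, the deubiquitylase of Machado-Joseph disease, shares a row with TRIP11, and that row rose from 1.104 ± 0.105 to 1.99 ± 0.200 FPKM (SD, n = 3; log2 fold change 0.80, limma adjusted p = 0.0332). Of the 23, 6 were higher and 6 lower with no overlap of the groups, or 52.2% in either direction. This was 34.2% for all genes and 39.3% for those averaging 1 FPKM or more. The median log2 fold change was 0.02, beside −0.08 over all genes tested, and it was 0.12 after median scaling. Its sign was not fixed, since the GC correction brought it to −0.0018 and leaving out GapNC replicate 1 to −0.11.

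The ER degradation machinery apart from the members, 38 tested of 39, had 0 genes that rose and 3 that fell at the adjusted p in limma. That is 7.89%, beside 6.99% of all genes and 11.7% of those averaging 1 FPKM or more. At an unadjusted p under 0.05, which 25.9% of all genes met, 4 were higher and 4 lower. RNF5, a ubiquitin ligase of the ER membrane, went from 26.6 ± 0.743 to 18.9 ± 0.727 FPKM (SD, n = 3), with a log2 fold change of −0.49 and a limma adjusted p of 0.0315 that was 0.055 after median scaling and 0.056 after the GC correction. UBAC2, which retains FAF2 in the ER, went from 6.37 ± 0.154 to 4.09 ± 0.150 FPKM (SD, n = 3), with a log2 fold change of −0.63 and a limma adjusted p of 0.0271. FBXO2, the F-box protein that binds glycans of retrotranslocated proteins, was at 19.3 ± 3.996 and 9.79 ± 1.61 FPKM (SD, n = 3), with a log2 fold change of −0.96 and a limma adjusted p of 0.0447 (0.0557 after median scaling). The list's median log2 fold change was 0.05 (0.15 after median scaling, 0.08 after the GC correction and 0.0005 with GapNC replicate 1 left out), and 4 of its genes were higher and 6 lower with no overlap (26.3%, beside 34.2% of all genes). The remaining derlin, DERL3, was at 0.000184 to 0.054 FPKM and was not tested.

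For 4 further genes of the machinery no change passed the test. HERPUD1, a scaffold of the SYVN1 complex and a stress-induced gene, was at 10.3 ± 1.47 and 10.5 ± 1.47 FPKM (SD, n = 3; limma adjusted p = 0.955). EDEM1, a mannosidase-like lectin, had a log2 fold change of 0.12 and SELENOS, a VCP anchor, one of 0.07. UBE2G2, a ubiquitin-conjugating enzyme of ER degradation, had 0.31.

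Of 30 unfolded protein response genes, all tested, 1 rose and 1 fell (6.67%, beside 6.99% of all genes and 11.7% of those averaging 1 FPKM or more). Without overlap 6 were higher and 4 lower (33.3%, beside 34.2%), and the median log2 fold change was 0.00 (0.10 after median scaling). PPP1R15A (GADD34), which directs the dephosphorylation of eIF2α, rose from 18.96 ± 0.581 to 34.1 ± 5.73 FPKM (SD, n = 3; log2 fold change 0.83, limma adjusted p = 0.0314). SIL1, the nucleotide exchange factor of HSPA5, fell from 3.20 ± 0.441 to 1.74 ± 0.0686 FPKM (SD, n = 3; log2 fold change −0.84, limma adjusted p = 0.0311). The ER chaperone HSPA5 (BiP) was at 164 ± 3.55 and 144 ± 31.9 FPKM (SD, n = 3), and GapC9 replicate 2, the library that was low for DERL1, was its lowest at 108 FPKM. DNAJB9, a target of XBP1, was at 3.47 ± 0.637 and 5.79 ± 0.463 FPKM (SD, n = 3) with no overlap and a limma adjusted p of 0.0561. This limma adjusted p was 0.0423 with the filter at 1 FPKM and 0.0124 after the GC correction, where 15.1% of all genes were called. It was 0.0567 after median scaling, 0.0912 with no filter and 0.0651 with the replicate block. Leaving out 1 library gave 0.0611 to 0.178, with 0 of 6 fits passing 0.05. XBP1 and DDIT3 had log2 fold changes of −0.36 and −0.47 with overlapping groups. With 1 library left out, PPP1R15A, SIL1, FBXO2 and the TRIP11 and ATXN3 row passed in 0 of 6 fits, and RNF5, UBAC2 and ASPSCR1 in 1 of 6, that without GapNC replicate 1.

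The Golgi reassembly genes, the machinery that NSFL1C serves, had 0 of 14 called in limma at the adjusted p and 1 higher and 1 lower at an unadjusted p under 0.05, with 2 higher and 1 lower without overlap (21.4%, beside 34.2% of all genes). Their median log2 fold change was 0.15, and it was 0.25 after median scaling and 0.05 after the GC correction, where the median of all genes was −0.08, 0.01 and 0.02 in the same order. The NSFL1C row stood at 0.41.

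**Figure D3:**
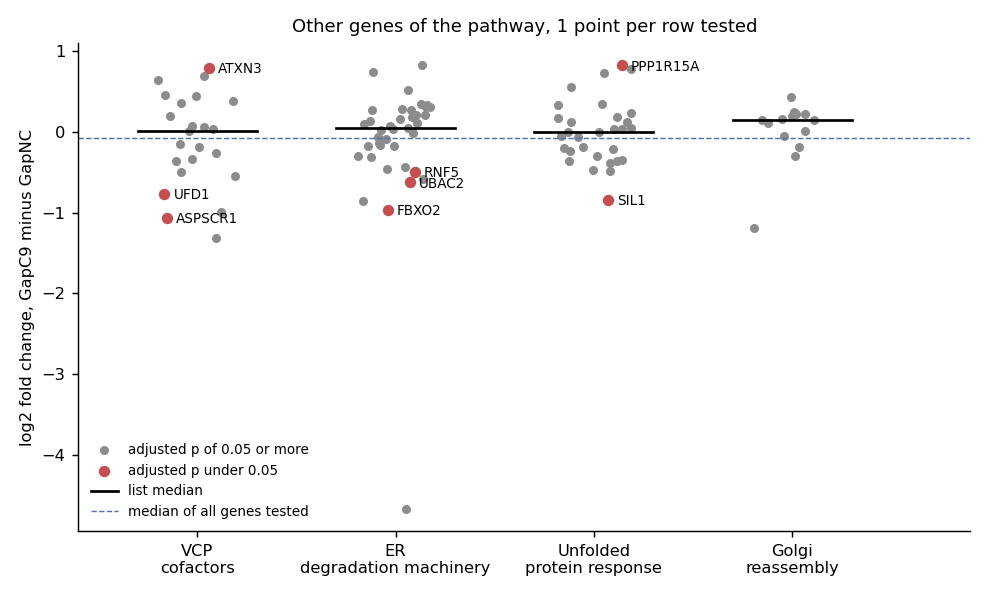
Log2 fold change (y axis, GapC9 minus GapNC) of the other genes of the pathway, 1 point per row tested in each of 4 lists, with the list median (black) and the median of all genes tested (dashed). Red points are the 8 with an adjusted p under 0.05: UFD1, ASPSCR1, RNF5, UBAC2, FBXO2 and SIL1 below 0, and the ATXN3 row and PPP1R15A above.

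The genes whose pattern over the 6 libraries was most like that of NPLOC4 were, among 9094 compared, PLK4 (the kinase of centriole duplication), CCDC117, TCF7 (a Wnt transcription factor), TBK1 (a kinase of innate immunity) and PIAS2 (a SUMO ligase). The measure was the root mean square difference of log2(FPKM + 0.1) after each gene's own mean was subtracted, and it was 0.141, 0.149, 0.177, 0.180 and 0.184. PLK4 gave 7.10, 10.0 and 10.0 FPKM in GapNC and 2.68, 2.65 and 3.11 FPKM in GapC9. CCDC117 went from a mean of 18.4 to 4.82 FPKM and TBK1 from 9.27 to 3.14 FPKM. In all 5, GapNC replicate 1 was the lowest control, as it was for NPLOC4. All 6 libraries entered the measure, so this shared dip and the shared fall in GapC9 follow from how the 5 were picked. UFD1 had its highest control there.

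**Figure D4:**
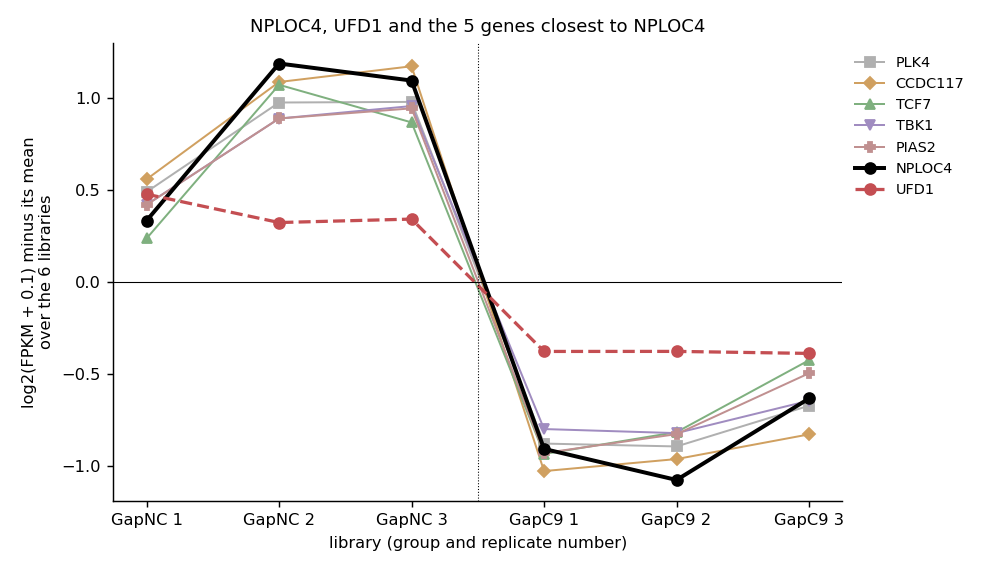
Log2(FPKM + 0.1) minus its mean over the 6 libraries (y axis) for NPLOC4, UFD1 and the 5 genes closest to NPLOC4, by library (x axis). Lines only join the points of a gene, and the order of libraries has no meaning. NPLOC4 and its 5 neighbors, which were picked for likeness over these same libraries, dip in GapNC replicate 1. NPLOC4 is at 13.98 FPKM and UFD1 at 9.18 FPKM there.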

How the data were processed

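Poly(A) RNA of HCT-116 cells was sequenced in paired ends, with 3 GapNC and 3 GapC9 libraries grouped by the transfection given in the sample records. The deposited values are FPKM, which the authors computed with StringTie after HISAT alignment, in 1 table of 27918 genes and loci, of which 1063 rows join genes. The submitters' processing notes list HISAT2 2.0, StringTie 1.3.0 and Bowtie 0.12.2. They also name a mouse build, which cannot be that of these reads, so the human build of the files is not given in the sources used here. GENCODE 29 (GRCh38) locations were matched by Ensembl identifier. The interval between transfection and harvest is stated in more than one way and is not given here.

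FPKM values were used as deposited, with 0 columns left unused. In R 4.3.3, limma 3.58.1 (lmFit, eBayes with a mean-variance trend) was fitted to log2(FPKM + 0.1) of the 16028 rows averaging 0.1 FPKM or more, with Benjamini-Hochberg adjustment over all of them. The table holds no counts, so edgeR, which the authors used for their own calls, was not run, and without counts no counting error is given. Calls used an adjusted p under 0.05, or the study's thresholds of fold and unadjusted p. SDs are of the 3 FPKM values of a group and SEs are from limma. The alternatives were pseudocounts of 1 and 0.01, a filter at 1 FPKM or none, median scaling, a replicate block, a GC correction (lowess, span 0.3, GC content known for 99.3% of the rows tested) and leaving out each library. On simulated data with 200 of 16028 genes changed, 167 were recovered and 9 others called. The changes were set in genes averaging 1 FPKM or more and were larger than the main log2 fold change of any member. The simulated noise was independent between libraries, with no GC trend. The recovery of smaller changes, or under the GC trends of these libraries, was not tested.

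The members, the 4 pathway lists and the marker lists were chosen with earlier results of these data known. Named were all members, UFD1, HERPUD1, SELENOS, HSPA5, DNAJB9, XBP1, DDIT3, EDEM1 and UBE2G2 whatever their values, every list gene at an adjusted p under 0.05, and the 5 genes closest to NPLOC4 with a mean of at least 1 FPKM, no 0 and a single gene name. A further gene that the rule names is not reported here. Promoters came from RefSeq (GRCh38.p14). Python 3.11.15, pandas 2.3.3, SciPy 1.17.1 and matplotlib 3.10.9 were used for the rest.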

Additional observations from a re-analysis of the deposited data

How the results depend on the processing

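The direction of NPLOC4, NSFL1C, FAF1, FAF2, DERL1, DERL2 and SEL1L was the same in all 13 settings, and that of the VCP row in 10 and of the FAU and SYVN1 row in 11. Rows that join genes, GC trends that differ between libraries, with GapNC replicate 1 highest and GapC9 replicates 2 and 3 lowest, and FPKM without counts limit the values of single genes.

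With no filter on low values, 146 genes were higher and 346 lower at the adjusted p in limma, and 555 were higher at the fold threshold. VCP cofactors then had 0 higher and 1 lower, and the unfolded protein response list 0 higher and 0 lower. The filter at 1 FPKM gave 116 higher and 380 lower at the fold threshold and 2 higher in the unfolded protein response list. Median scaling gave 511 lower at the adjusted p, 1 lower in the ER degradation machinery and a FAF1 level of 4.98 FPKM in GapNC. The GC correction gave 1135 higher and 1280 lower at the adjusted p, 422 lower at the fold threshold and 4 of the 9 members at the adjusted p. Under it 5 of 23 VCP cofactors and 5 of 38 genes of the ER degradation machinery were higher. So were 3 of 30 genes of the unfolded protein response and 2 of 14 of Golgi reassembly, and 2 of the unfolded protein response were lower. Of all 16028 genes tested, 15.1% were called under it in either direction. The cause of these shifts was not tested.

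Deviations of same-numbered libraries correlated at 0.097, 0.0399 and 0.0243 over 16028 genes, so the numbers were not taken to pair the samples. Replicate 1 did have the highest GC trend of each group (Spearman rho 0.63 in GapNC and 0.0259 in GapC9), so a pairing stays undecided. With the replicate block, 0 genes passed an adjusted p of 0.05 in limma (the smallest was 0.0608) and 4570 passed an unadjusted p of 0.05, so the adjusted counts under the block were 0 for the 9 members and 0 higher and 0 lower for each of the 4 lists.

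Over the 6 fits that each omit a library, the adjusted p called 16 to 241 genes higher and 17 to 573 genes lower, and the fold threshold 323 to 386 and 554 to 809. Of the 9 members, 0 to 1 passed the adjusted p, where 0.212% to 5.09% of all genes did. The fold threshold was passed by 1 to 2 (DERL1 joined NPLOC4 without GapC9 replicate 3), beside 5.83% to 7.25% of all genes. The groups did not overlap for 7 to 8 of the 9, beside 40.8% to 45.8% of all genes in these smaller sets of libraries. The lists had 0 higher, and 0 to 2 VCP cofactors, 0 to 3 genes of the ER degradation machinery, 0 of the unfolded protein response and 0 to 1 of Golgi reassembly lower. The 3 were RNF5, UBAC2 and RNF139, without GapNC replicate 1, and the Golgi gene was YKT6, without GapC9 replicate 3. GapNC levels in FPKM ran from 32.4 to 36.6 for the VCP row, 18.9 to 24.6 for NPLOC4, 4.78 to 5.42 for the NSFL1C row, 5.11 to 5.19 for FAF1, 16.9 to 26.0 for FAF2, 15.3 to 17.1 for DERL1, 3.84 to 4.20 for DERL2, 21.6 to 26.5 for the FAU and SYVN1 row and 3.93 to 4.20 for SEL1L, and the CASC9 difference of means from 0.0228 to 0.0763 FPKM. XBP1 ranged from −0.574 (log2 fold change) to 0.0113 and changed sign without GapNC replicate 1. SELENOS ranged from −0.0532 to 0.288, negative without GapNC replicates 1 and 2 and GapC9 replicates 1 and 3, and HERPUD1 from −0.0894 to 0.128, negative without GapNC replicate 3 and GapC9 replicate 1.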

Other observations

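3 further genes of the lists were singled out after their values were seen. RNF139, a sterol-sensing ubiquitin ligase of the ER membrane, was at 0.145, 16.3 and 18.6 FPKM in GapNC and 0.00286, 0.0775 and 0.145 FPKM in GapC9, so that GapNC replicate 1 read like the GapC9 libraries. Its limma adjusted p was 0.157 with all libraries and 0.0148 without GapNC replicate 1. YKT6, a SNARE of Golgi transport, was at 34.2, 34.01 and 30.3 FPKM in GapNC and 11.2, 9.42 and 28.2 FPKM in GapC9, with replicate 3 near the controls. VCPIP1, the deubiquitylase of VCP in Golgi reassembly, was at 0.144 FPKM in GapC9 replicate 2 and between 3.09 and 4.54 FPKM in the other 5 libraries. That replicate also held the lowest DERL1 and HSPA5 values. ERLIN2 and ERO1A, also of the lists and also picked after their values were seen, had their highest values there, at 10.9 and 22.8 FPKM. GapC9 replicate 2 was the single library at least 3-fold under the others in 63 of 10229 genes averaging 1 FPKM or more (0.616%). For the other libraries this share ran from 0.538% (GapC9 replicate 3) to 0.948% (GapNC replicate 1).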
